A study of Mus musculus with 2 samples.

Results

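Pressure overload in hearts without T cells was read from 1754 CD45+ cells of CD3ϵ-/- mice, of 5263 cells kept in the series. They comprised 919 cells taken after transverse aortic constriction (TAC) and 835 cells taken after sham surgery. A cell belonged to a group by the hashtag that the authors assigned to it, and it was kept when it had 500 or more genes and when mitochondrial genes took at most 0.4 of its reads. Genes were compared over all CD45+ cells and, apart, over 1157 monocytes and macrophages, gated as cells with Csf1r at 200 or more CPM and Lyz2 at 2000 or more CPM, a level being the reads of a gene scaled to the same total. Csf1r, the receptor for the growth factor of macrophages, and Lyz2, their lysozyme, chose these gated cells and are therefore no result there.

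The study compared TAC with sham surgery in WT mice and in mice without T cells, and 5 groups of cells were sequenced together in 1 pooled library. The mice were male, 8 weeks old and on a C57BL/6 background (C57BL/6N in the deposited notes), and hearts were taken 1 week after surgery. In TAC a suture narrows the aortic arch, so that the left ventricle pumps against a raised pressure. The CD3ϵ deletion was carried by both groups compared here, in every cell and from birth, so a lifelong absence of T cells was shared by sham and TAC. How many mice were pooled in each group is not given in the sources used here. Each group was 1 sample, so that no test was made and every difference below is a difference between 2 pooled samples. Intervals are exact 95% intervals and cover counting error only, because the files count reads and not molecules. The WT groups, prepared in the same library, are given beside the CD3ϵ-/- groups, without a test of the difference.

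The heart holds resident macrophages that clear dead cells and debris, and a pressure load brings in monocytes from the blood that become macrophages in the tissue. T cells are a main source of interferon-gamma, while interferons of type I come from many cell types and induce a shared set of antiviral genes. Macrophages take on many states, among them a state rich in interferon-induced genes, a state rich in lysosomal and lipid genes, and a state marked by Arg1 and Retnla that interleukin-4 brings about.

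The TAC sample was the more deeply sequenced. It held 136130015 reads, against 91899777 in the sham sample, and its cells had a median of 117788 reads and 4454 genes, against 78372 reads and 3455 genes. The mitochondrial share had a median of 3.67% after TAC and 4.80% after sham surgery. Thinning each cell to 33571 reads left out 97 sham and 79 TAC cells and served as a check on depth. No cell barcode was shared between groups. Cd3g, a chain of the T cell receptor complex, had reads in 3 sham and 1 TAC cell of CD3ϵ-/- mice, against 53 and 47 WT cells. Trac had reads in 5 and 4 cells, against 38 and 45. Other genes of the receptor were less clear: Cd3d had reads in 72 and 81 cells, against 118 and 175 in WT. Trbc1 had reads in 39 and 13 cells, against 78 and 52, and Trbc2 in 32 and 12, against 84 and 58. Trbc1 was at 27.4 CPM in sham and 6.55 CPM in TAC. Reads of Cd3e itself were at 3.73 CPM in sham and 5.64 CPM in TAC, against 17.8 and 10.9 CPM in WT, which is lower but not 0, and which part of the gene was deleted is not given in the sources used here. T cell-like cells numbered 14 of 835 and 6 of 919.

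Monocytes and macrophages made up a larger part of the CD45+ cells after TAC. The gate held 485 of 835 sham cells, or 58.1% (54.6 to 61.5%), and 672 of 919 TAC cells, or 73.1% (70.1 to 76.0%), a difference of 15.04 percentage points. After thinning the shares were 60.6% and 75.0%. In WT the shares were 56.5% and 67.8%. The 2 intervals of the CD3ϵ-/- groups did not overlap, although the spread between mice is unknown.

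B cells, group 2 innate lymphoid cells and mast cells took smaller shares. Cells were put in a class when 3 or more of its marker genes reached 100 CPM. B cell-like cells, which express the antigen receptor genes Cd79a and Ighm, were 16.9% (14.4 to 19.6%) of sham cells and 10.01% (8.15 to 12.1%) of TAC cells. Cells like group 2 innate lymphoid cells, marked by Gata3 and the interleukin-33 receptor Il1rl1, were 37 of 835 after sham surgery (4.43%, 3.14 to 6.06%) and 4 of 919 after TAC (0.435%, 0.119 to 1.11%). Mast cell- or basophil-like cells were 29 (3.47%, 2.34 to 4.95%) and 2 (0.218%, 0.0264 to 0.784%). Each of these 3 classes was also smaller after TAC in WT hearts, at 10.8% and 6.56%, 6.8% and 1.3%, and 3.7% and 0.681%. Neutrophil-like cells numbered 7 in sham and 19 in TAC (0.838% and 2.07%), with overlapping intervals of 0.338 to 1.72% and 1.249 to 3.21%. Shares of one class move with those of all others, so a lower share does not say that fewer such cells were in the heart. In sums over cells, fewer cells of a type and less RNA per cell cannot be told apart.

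Within the gate, cells with monocyte markers and with markers of recruited macrophages were more frequent after TAC. Ly6c-high monocyte-like cells, defined by genes such as Ly6c2, Plac8 and Vcan, were 60 of 485 sham cells (12.4%, 9.58 to 15.6%) and 199 of 672 TAC cells (29.6%, 26.2 to 33.2%). Gpnmb macrophage-like cells, defined by genes of lipid-laden macrophages such as Gpnmb and Trem2, were 16.9% (13.7 to 20.6%) and 38.7% (34.99 to 42.5%). Gpnmb itself had a read in only 1.65% and 5.95% of gated cells, so most cells of this class met its definition by other markers. Trem2 was read in 37.7% and 58.5% of gated cells and Plin2 in 46.8% and 64.9%. Spp1 macrophage-like cells, defined by secreted matrix proteins such as Spp1, Thbs1 and Fn1, were 12.99% (10.1 to 16.3%) and 33.3% (29.8 to 37.0%). Ly6c-low monocyte-like cells, with markers of patrolling monocytes such as Ace and Treml4, were 6.80% (4.73 to 9.42%) and 11.2% (8.88 to 13.8%). These classes overlap, since 97 sham and 298 TAC cells met several definitions, and 217 and 133 cells met none.

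Resident macrophage-like cells were defined by Lyve1, Folr2, Timd4, Cd163, Cbr2, Gas6, F13a1 and Vsig4. They kept a like share in CD3ϵ-/- hearts, at 79 of 485 (16.3%, 13.1 to 19.9%) and 97 of 672 (14.4%, 11.9 to 17.3%). The single markers did not move together. Lyve1 was read in 6.8% and 3.12% of gated cells and Cd163 in 21.0% and 10.4%. Folr2 rose from 9.69% to 14.9%, Timd4 from 3.09% to 4.02% and Vsig4 from 0.412% to 2.53%. F13a1 (55.9% and 55.8%), Cbr2 (21.2% and 22.9%) and Gas6 (23.9% and 20.8%) were nearer level. In WT this class was 32.4% of gated sham cells and 18.4% of gated TAC cells. The sham samples of the genotypes thus stood further apart in this class than the TAC samples did. Cells with 3 or more markers of the Retnla list went the opposite way to the monocytes, at 51 (10.5%, 7.93 to 13.6%) and 7 (1.04%, 0.420 to 2.13%). Dividing cells were 14 (2.89%, 1.59 to 4.80%) and 42 (6.25%, 4.54 to 8.36%). After thinning the Spp1 class was 13.9% and 33.0%, the Gpnmb class 16.6% and 37.8%, the Ly6c-high class 12.5% and 30.0% and the Retnla class 11.6% and 0.952%. The share of a class restates the levels of its own markers and is not separate from them. The classes are ranges of a marker count and not fixed types: with a marker limit of 50 or 200 CPM in place of 100, the Spp1 class was 17.5% and 40.5%, or 9.07% and 23.8%.

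**Figure D1:**
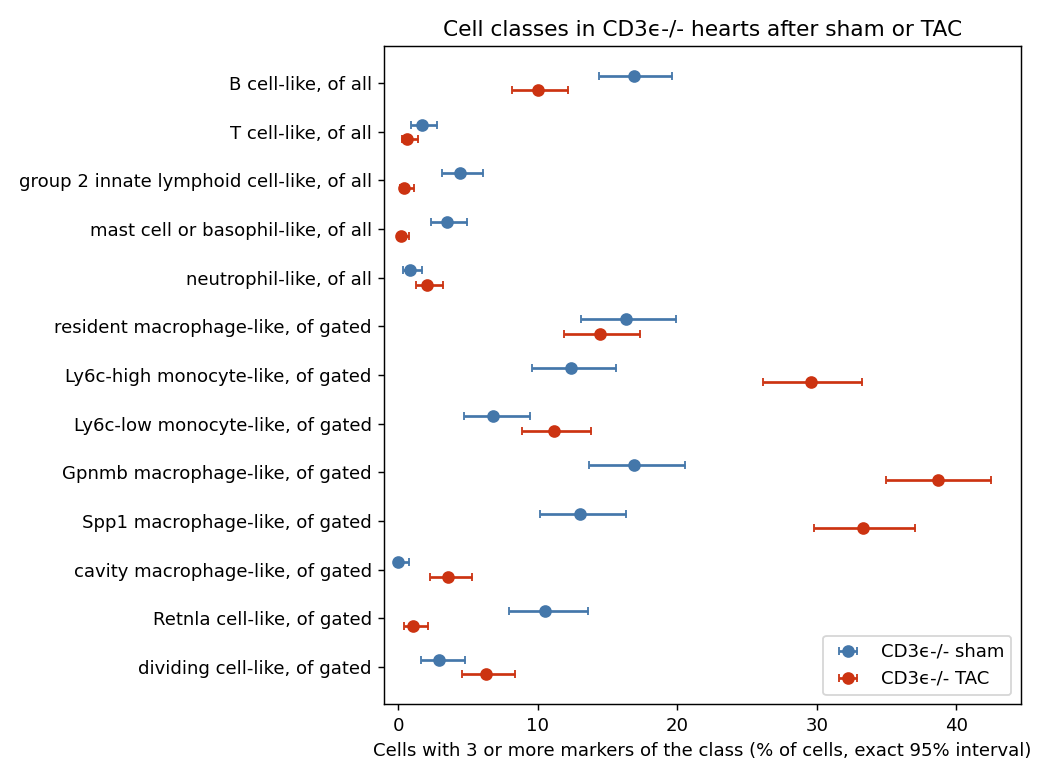
Share of CD3ϵ-/- cells in each marker class after sham surgery (blue) and TAC (red), in percent of all CD45+ cells or of gated cells, with exact 95% intervals. The Ly6c-high, Gpnmb and Spp1 classes sit far to the right after TAC, while the innate lymphoid, mast cell and Retnla classes shrink to 1.04% or less.

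Over all CD45+ cells 9062 genes had a mean of 10 or more CPM. Of these, 188 (2.07%) were at least 2-fold higher after TAC and 169 (1.86%) at least 2-fold lower, with 5 CPM added to both levels. Among 8743 genes of gated cells, 174 (1.99%) were higher and 104 (1.19%) lower, and the median log2 ratio over all of them was 0.04. In WT hearts, 102 (1.13%) and 174 (1.92%) of the same genes were higher and lower over all cells, and 105 (1.2%) and 59 (0.675%) in gated cells. Of the genes higher in gated CD3ϵ-/- cells 78 were also higher by this limit in WT, or 44.8% of the CD3ϵ-/- genes and 74.3% of the WT genes. Of the lower genes 41 were shared, or 39.4% and 69.5%. The sign was the same in WT for 164 of the 174 higher and 94 of the 104 lower genes. Counting error of reads was small, as no gene at 100 or more CPM in gated cells had a Poisson bound more than 2.65% above its level. These bounds count reads and not cells. A level that comes from few cells is therefore less certain than its bounds show.

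**Figure D2:**
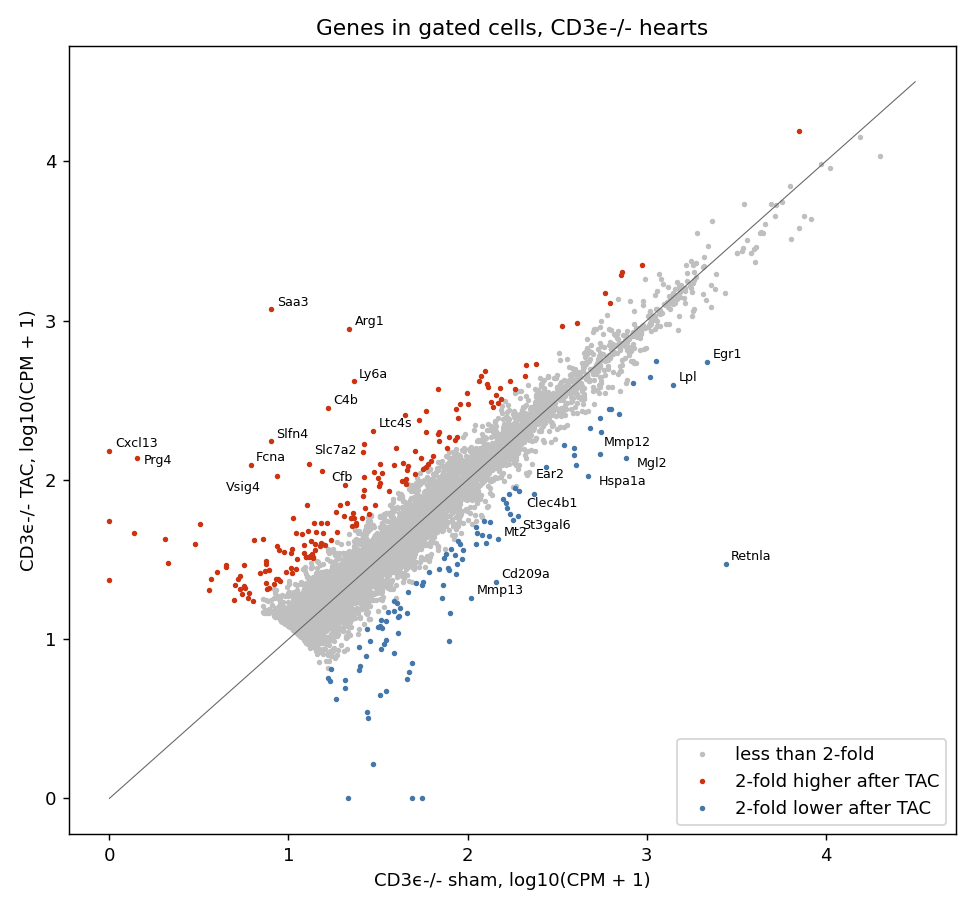
Level of each tested gene in gated CD3ϵ-/- cells, as log10(CPM + 1), after sham surgery (x axis) and after TAC (y axis). Red points are at least 2-fold higher after TAC, blue points at least 2-fold lower, and the named genes have the highest and lowest ratios, with Saa3 and Arg1 at the upper left and Retnla at the lower right.

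Genes induced by type I interferon were higher after TAC in T cell-deficient hearts, with every tested member above 0. Over all cells 30 of 33 tested members were at least 2-fold higher and none lower, with a median log2 ratio of 1.48, against 0.03 over all genes. In gated cells 24 of 33 were higher and none lower, with a median of 1.51. In WT the medians were 1.38 and 1.31, so the list stood higher after TAC with and without T cells.

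Irf7, the transcription factor that amplifies interferon production, was at 67.0 CPM (64.9 to 69.1) in gated sham cells and 372 CPM (368 to 376) in gated TAC cells, a log2 ratio of 2.39. Isg15, a ubiquitin-like protein joined to others during infection, was at 57.9 CPM (56.0 to 59.9) and 270 CPM (267 to 273), a log2 ratio of 2.13. Ifit2, which binds viral RNA, was at 25.3 and 168 CPM (2.51), and Rsad2, which makes a chain terminator of viral RNA synthesis, at 25.2 and 149 CPM (2.35). These were the 4 genes of the list with the highest ratios over all cells. They were not carried by a few cells alone: Irf7 reached 100 CPM in 64 of 485 sham cells (13.2%) and in 297 of 672 TAC cells (44.2%). Irf7 had a read in 15.7% and 48.7% of gated cells and, after thinning, in 16.3% and 49.4%, against 9.47% and 11.7% of B cell-like cells, whose median depth was 55546 and 63088.5 reads. Stat2, which carries the interferon signal to the nucleus, was at 53.7 and 136 CPM (1.26). The 9 members below 2-fold in gated cells included the sensor Ifih1, at 59.4 and 112 CPM (0.86), and the chemokine Cxcl10, at 67.4 and 129 CPM (0.89), which had a ratio of 2.02 in WT.

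Promoters of this list often hold the core of the interferon-stimulated response element. The 250 bases before the start of each gene were taken from RefSeq (GRCm38.p6), and the letters GAAANNGAA were searched on both strands. Among 24 members for which RefSeq gave a promoter, 14 (58.3%) held the core, against 8.18% of 27025 genes and 8.09% of 6748 tested genes. Of 18 such members at least 2-fold higher in gated cells 10 (55.6%) held it, near the share of the list. The list was made of interferon-induced genes, so this share describes the list and not an effect of TAC. The windows of Rsad2 and Isg15, leading genes with a match, are shown as examples. The gene strand is minus for both, the windows are written 5′ to 3′ along that strand, and capitals mark the core or its reverse complement. The Rsad2 window is at chr12:26456453-26456702, with its match 110 bases before the start, and the Isg15 window is at chr4:156200819-156201068, with 3 overlapping matches, the nearest 57 bases before the start. No match was found in the windows of Ifit2 and Irf7.
Rsad2: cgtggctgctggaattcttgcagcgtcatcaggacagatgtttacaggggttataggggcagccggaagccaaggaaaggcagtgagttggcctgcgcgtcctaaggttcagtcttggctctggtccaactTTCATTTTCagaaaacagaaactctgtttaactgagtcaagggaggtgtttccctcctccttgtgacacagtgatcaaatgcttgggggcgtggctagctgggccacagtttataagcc
Isg15: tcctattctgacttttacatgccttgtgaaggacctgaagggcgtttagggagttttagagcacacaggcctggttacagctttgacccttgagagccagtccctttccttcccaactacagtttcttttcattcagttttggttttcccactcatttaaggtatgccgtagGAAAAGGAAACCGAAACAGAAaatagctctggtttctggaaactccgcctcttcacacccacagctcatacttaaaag

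The interferon-induced genes were higher in every class of monocytes and macrophages that was examined, and little in B cells. The median log2 ratio of the list was 1.15 in Ly6c-high monocyte-like cells, 0.87 in Ly6c-low monocyte-like cells, 1.08 in resident macrophage-like cells, 1.32 in Gpnmb cells, 1.26 in Spp1 cells and 1.73 in gated cells of no subclass. In B cell-like cells outside the gate it was 0.29. Levels and ratios did not run together: Irf7 was at 211 and 726 CPM in Ly6c-high cells (1.76), at 221 and 293 CPM in Ly6c-low cells (0.40) and at 15.6 and 127 CPM in resident cells (2.68). In the cells of no subclass Irf7 was at 43.6 and 395 CPM (3.04). The ratio over the gate was thus present inside classes too.

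Genes that interferon-gamma induces were also higher, in hearts that lack T cells. Of 18 tested members 9 were at least 2-fold higher in gated cells and none lower, with a median log2 ratio of 1.00, against 0.71 in WT. Over all cells 10 of 19 were higher and 1 lower. Gbp2, a GTPase that acts on membranes of intracellular microbes, was at 29.0 CPM in gated sham cells and 111 CPM in gated TAC cells (1.77). Cxcl9, a chemokine for T cells, was at 9.57 and 56.3 CPM (2.07). Ifi47, a GTPase of the same defence, was at 45.7 and 122 CPM (1.32). Irf1, the early transcription factor of this response, was an exception at 214 and 106 CPM (-0.98), and Socs1, its feedback inhibitor, was at 16.4 and 12.7 CPM (-0.27). Many genes of this kind can also respond to type I interferon. The response element core was in 12 of 14 promoters of this list (85.7%), against 8.09% of tested genes. Which interferon lay behind these ratios was not tested. NK cell-like cells, a source of interferon-gamma other than T cells, numbered 8 in sham and 11 in TAC.

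Antigen presentation split by class. In MHC class I, which shows peptides from inside the cell, 2 of 19 members were at least 2-fold higher in gated cells (H2-Q7, 77.7 and 185 CPM, and H2-T22, 44.3 and 101 CPM), and the median was 0.47. MHC class II, which shows peptides to CD4+ T cells, had a median of -0.90 in gated cells and of -0.43 in WT. Its invariant chain Cd74 was at 20166 and 10755 CPM (-0.91), H2-Aa at 8234 and 4358 CPM (-0.92) and H2-Ab1 at 7118 and 3811 CPM (-0.90). Only H2-DMb2 of the 11 tested members was at least 2-fold lower, at 86.4 and 28.6 CPM. The median of the list was -1.31 in resident macrophage-like cells, -1.05 in Spp1 cells and 0.66 in Ly6c-high monocyte-like cells. The protease Ctss, which trims the invariant chain, was at 2331 and 4225 CPM (0.86), opposite to the rest.

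**Figure D3:**
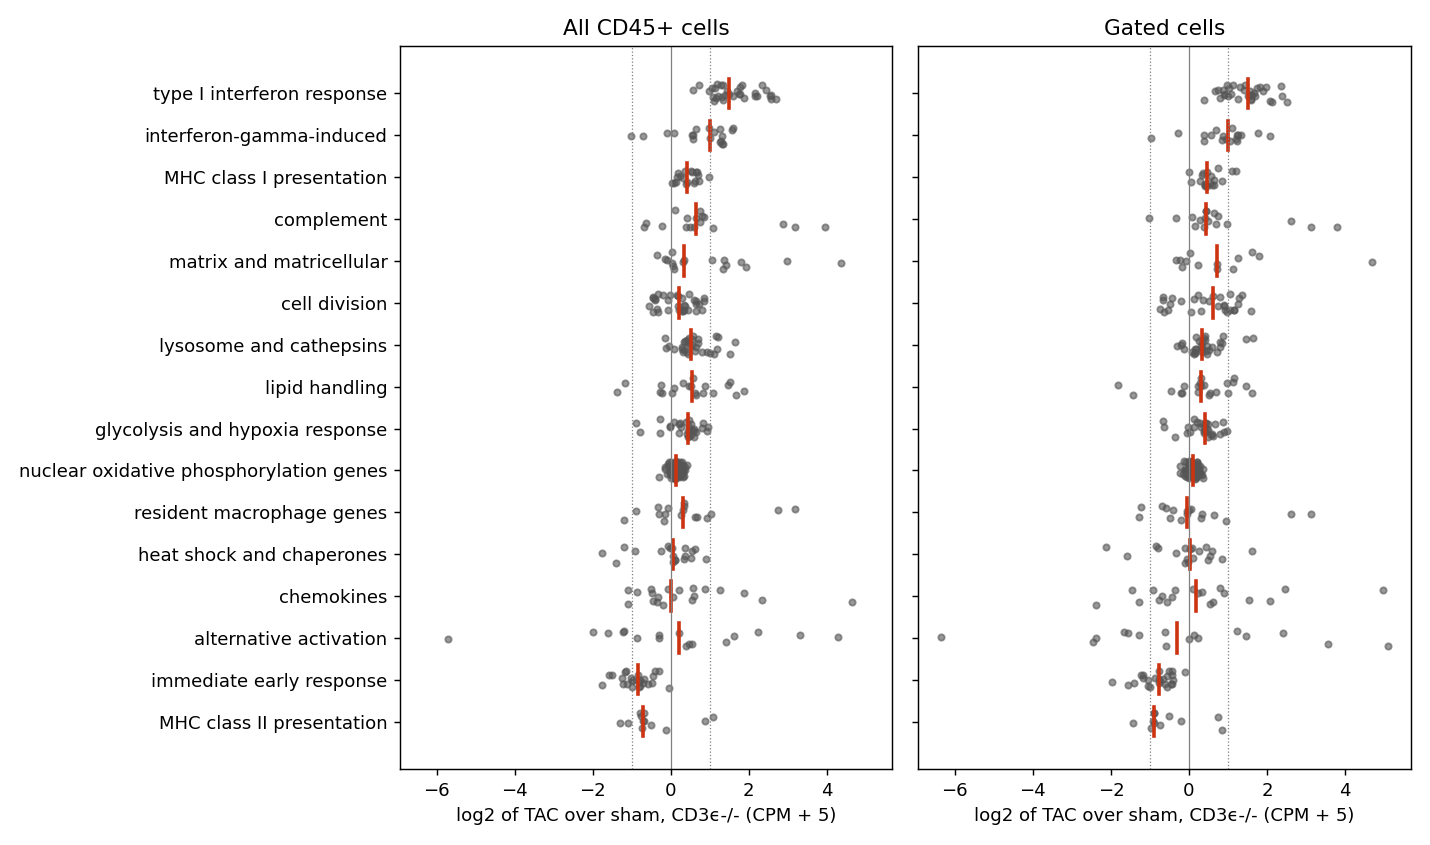
Log2 ratio of TAC over sham for each tested gene (points) of 16 gene lists in CD3ϵ-/- hearts, over all CD45+ cells (left) and gated cells (right), with the median of each list as a red line and dotted lines at 2-fold. The type I interferon list lies wholly to the right of 0, with medians of 1.48 and 1.51, and the immediate early list to the left, at -0.85 and -0.76.

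Arg1 was far higher after TAC in both genotypes. Arg1, which breaks down arginine, was at 20.8 CPM (19.7 to 22.1) in gated sham cells and at 885 CPM (879 to 891) in gated TAC cells, a log2 ratio of 5.11. In WT it was at 5.004 and 204 CPM (4.39). Arg1 reached 100 CPM in 3 of 485 sham cells and 90 of 672 TAC cells, and it had a read in 0.825% and 13.7% of gated cells, or after thinning in 0.895% and 14.3%, against 0 and 3.33% of B cell-like cells. Its level differed widely between classes of TAC cells. It was 10.7 CPM in cells of no subclass and 756 CPM in Ly6c-high cells. In resident, Gpnmb and Spp1 cells it was 1264, 1490 and 1927 CPM. The cavity-like cells described below were not taken out of the named classes, while cells of no subclass exclude them. They held 52.1% of the Arg1 reads of the TAC sample, so these levels do not describe the classes apart from them. Slc7a2, a carrier that brings arginine into cells, was at 11.99 and 124 CPM (2.93), and 10 TAC cells held 74.1% of its reads.

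A small set of cells with markers of cavity macrophages was found after TAC and hardly at all after sham surgery or in the WT sham and WT TAC groups. Such macrophages live in the serous cavities, the pericardial space among them. The class rested on Saa3, Prg4, Cxcl13, Gata6, Icam2, Selp, Garnl3, F5 and Fcna, and it held 24 of 672 gated TAC cells (3.57%, 2.30 to 5.27%) and 0 of 485 gated sham cells, which allows a share of up to 0.619% by a limit of 3 cells, or 0.758% by the exact interval. Over all cells it held 25 TAC cells and 1 sham cell, against 2 of 1615 WT TAC cells and 0 of 1000 WT sham cells. The cells were deeply sequenced, with a median of 346922.5 reads in the gate. Gata6, the transcription factor that defines peritoneal macrophages, was at 28.7 CPM in them and at 0.813 CPM in the other TAC cells. This follows in part from its use as a marker of the class. The log2 ratio of Gata6 was -0.05 over all CD45+ cells and 0.46 in gated cells, and that of the marker Garnl3 was -0.09 and -0.02.

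Several of the highest ratios sat in these cells. Saa3, an acute phase protein, was at 7.04 CPM (6.36 to 7.76) in gated sham cells and 1179 CPM (1172 to 1185) in gated TAC cells (6.62), against 7.19 and 13.1 CPM in WT (0.57). Of its reads in the TAC sample 91.2% came from the 25 cells, which follows from its use as a marker. A Saa3 read was in 38.8% and 50.9% of gated cells, and after thinning in 18.8% and 24.3%, close to the 16.8% and 18.3% of B cell-like cells, so that a read alone did not mark a cell. In TAC cells outside the class Saa3 was at 89.7 CPM, against 7.00 CPM in such sham cells, and without cavity-like cells its log2 ratio in gated cells was 3.25. Cxcl13, the chemokine that draws B cells to body cavities, had no read in 485 gated sham cells and was at 152 CPM after TAC. Only 1.79% of gated TAC cells had a Cxcl13 read, and 96.2% of its reads in the TAC sample came from the 25 cells. A fold value is not given, because so few cells carried the gene. Prg4, a lubricant of serous surfaces, was at 0.424 and 135 CPM (4.69), against 0.07 for the ratio in WT.

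The same cells held a large part of genes that did not define them. They held 52.1% of the Arg1 reads of the TAC sample, at 5413 CPM against 369 CPM in the other TAC cells, and 71.7% of the Slc7a2 reads. They also held 53.7% of the reads of C4b, a complement component, and 31.5% of those of Ltc4s, which makes leukotriene C4. Without cavity-like cells the log2 ratio in gated cells was 4.16 for Arg1, 2.82 for C4b, 2.22 for Ltc4s and 1.30 for Slc7a2, each still above 2-fold. Fn1, the matrix protein fibronectin, was at 940 and 2251 CPM (1.26) with them and had a ratio of 0.85 without them. Leaving out in place of these the cells that held markers of several lineages (doublet-like cells) gave 5.06 for Arg1 and 6.66 for Saa3.

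**Figure D4:**
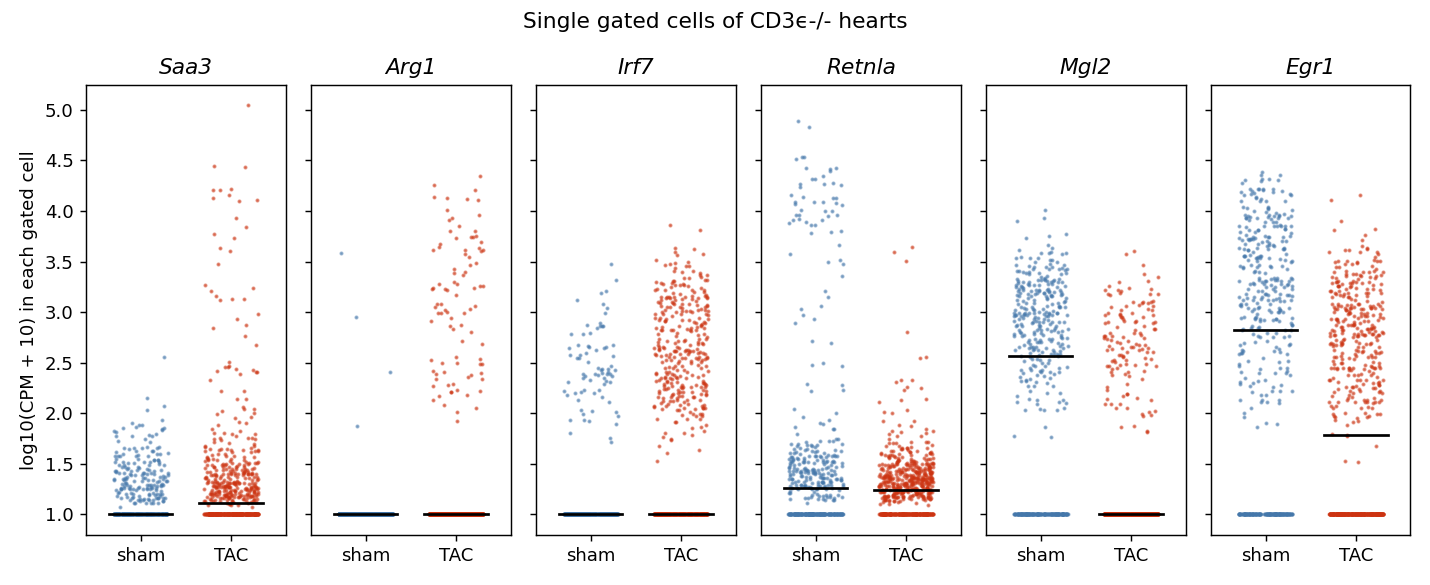
Level of 6 genes in each gated CD3ϵ-/- cell, as log10(CPM + 10), after sham surgery (blue) and TAC (red), with the median as a black line. Saa3 and Arg1 are high in a minority of TAC cells, Irf7 reaches 100 CPM in 297 of 672, Retnla is high in a minority of sham cells, and Mgl2 and Egr1 are low across most TAC cells.

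Other genes with high ratios were spread over more cells. Ly6a, the surface protein Sca-1 that interferons induce, was at 22.1 CPM (20.9 to 23.4) and 414 CPM (410 to 418) in gated cells, a log2 ratio of 3.95, and it reached 100 CPM in 16 sham and 184 TAC cells. Its ratio was 5.40 in Ly6c-high monocyte-like cells and 0.48 in B cell-like cells, which expressed Ly6a in both groups, at 264 and 371 CPM. Slfn4, a myeloid gene of the interferon-induced Schlafen family, was at 6.98 and 174 CPM (3.90), with 10 and 133 cells at 100 CPM. Cfb, factor B of the alternative complement pathway, was at 14.4 and 113 CPM (2.61) in 16 and 161 such cells. The WT ratios of these 3 genes, 3.19 for Ly6a, 2.83 for Slfn4 and 1.82 for Cfb, had the same direction. Tgm2, a crosslinking enzyme of macrophages, was at 44.0 and 255 CPM (2.41), near its WT ratio of 2.49.

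Several complement and resident macrophage genes had unlike ratios in the genotypes. C4b was at 15.6 and 282 CPM in gated cells (3.80), in 15 and 104 cells at 100 CPM, and had a WT ratio of 0.89. Vsig4, a complement receptor of resident macrophages, was at 7.60 and 105 CPM (3.12), but in only 2 sham and 15 TAC cells, and had a WT ratio of -0.89. Ltc4s was at 28.7 and 202 CPM (2.62), in 30 and 102 cells, with a WT ratio of -0.43. Fcna, a lectin of the complement system and one of the cavity markers, was at 5.15 and 123 CPM (3.66), with a WT ratio of -0.33. The C1q chains, the abundant recognition proteins of the classical pathway, were nearly level, with C1qa at 1774 and 2352 CPM (0.41). Among the other resident macrophage genes Timd4, a receptor for dead cells, was at 9.04 and 22.1 CPM (0.95), while Cd163, the haemoglobin scavenger receptor, was at 93.5 and 35.4 CPM (-1.29) and Lyve1, a hyaluronan receptor, at 113 and 79.7 CPM (-0.48). In WT all 3 were lower, by log2 ratios of -1.29 for Timd4, -2.02 for Cd163 and -1.63 for Lyve1.

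**Figure D5:**
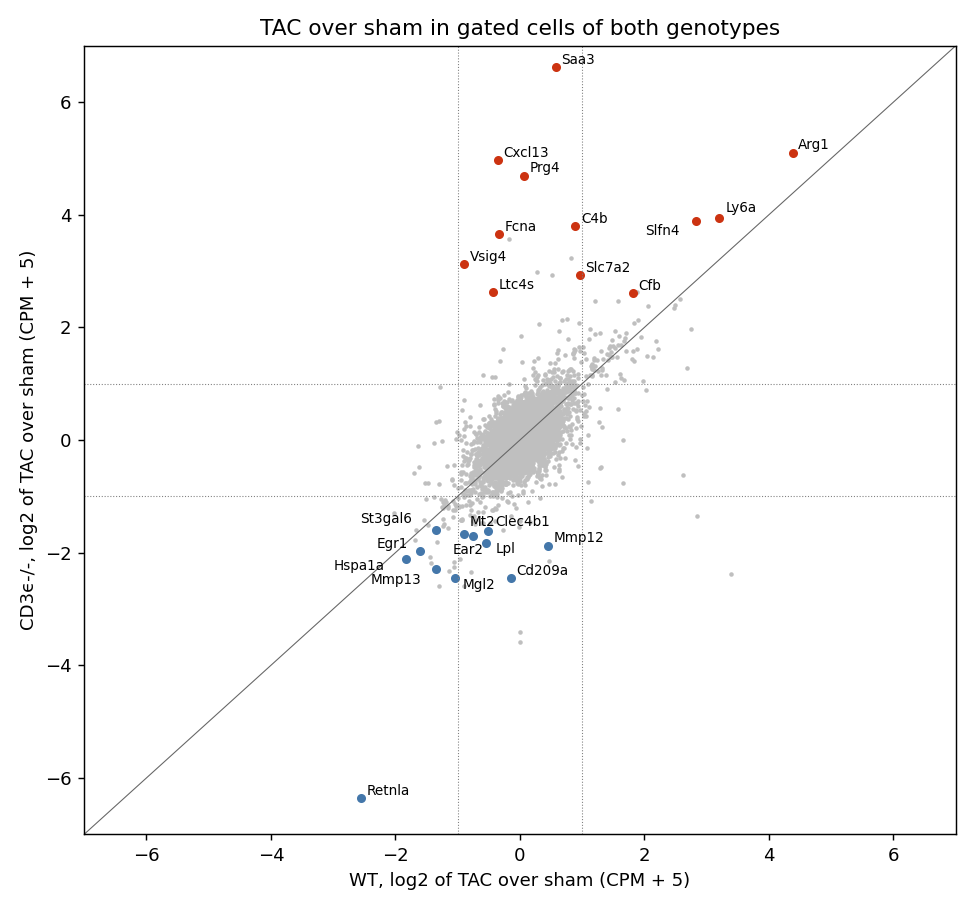
Log2 ratio of TAC over sham in gated cells for each tested gene, in WT (x axis) and CD3ϵ-/- hearts (y axis), with dotted lines at 2-fold and the diagonal drawn. Arg1, Ly6a and Slfn4 are high in both genotypes, Saa3, Cxcl13, Prg4, Fcna, Vsig4 and Ltc4s are high in CD3ϵ-/- hearts and at 0.57 or lower in WT, and Mmp12 lies on opposite sides of 0.

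Retnla had the lowest ratio in gated cells. Retnla, a secreted protein of macrophages exposed to interleukin-4, was at 2763 CPM (2749 to 2777) in gated sham cells and 28.6 CPM (27.6 to 29.6) in gated TAC cells, a log2 ratio of -6.36, against 1968 and 333 CPM in WT (-2.55). It was high in few cells, as 67 sham and 15 TAC cells reached 100 CPM and 10 sham cells held 51.4% of the reads. A Retnla read was in 56.5% and 64.4% of gated cells, and after thinning in 36.7% and 28.7%, against 25.3% and 35% of B cell-like cells, so that low levels of it lay within background. The Spp1 class went from 4525 to 27.2 CPM and the Ly6c-high class from 44.1 to 12.4 CPM. The other tested genes of the Retnla list were also at least 2-fold lower, among them the elastase Mmp12 at 546 and 145 CPM (-1.88) and the ribonuclease Ear2 at 400 and 123 CPM (-1.67). Mmp12 had a ratio of 0.46 in WT.

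Mgl2 was lower across most of the gated cells. This lectin of interleukin-4-exposed macrophages and dendritic cells was at 767 CPM (760 to 774) and 136 CPM (133 to 138), a log2 ratio of -2.46, with 293 of 485 and 123 of 672 cells at 100 CPM. The median cell was at 362 CPM after sham surgery and at 0 after TAC, and the WT ratio was -1.03. Mgl2 was read in 61.6% and 19.6% of gated cells, and after thinning in 62.6% and 19.7%, against 10.5% and 1.67% of B cell-like cells. Cd209a, a lectin of dendritic cells, was at 143 and 21.9 CPM (-2.46), with 32 and 10 cells at 100 CPM. Mmp13, a collagenase, was at 104 and 17.2 CPM (-2.30). Lpl, the lipase that frees fatty acids from lipoproteins, was at 1411 CPM (1402 to 1421) and 396 CPM (392 to 400), a ratio of -1.82, and it reached 100 CPM in 323 and 274 cells. Cd36, a fatty acid and scavenger receptor, was at 390 and 142 CPM (-1.43). The alternative activation list that holds Arg1, Retnla and Mgl2 was split, since 5 of its 16 tested genes were higher in gated cells and 6 lower, with a median of -0.29.

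Genes of the immediate early response, which cells switch on within minutes of a stimulus, were lower after TAC. None of 25 was at least 2-fold higher and 9 were at least 2-fold lower, both over all cells and in the gate, and the median in gated cells was -0.76, with -0.88 in WT. Egr1, a zinc finger transcription factor, was at 2169 CPM (2157 to 2181) and 549 CPM (545 to 553) in gated cells (-1.97). Fosb, a partner of Jun in the AP-1 factor, was at 702 and 259 CPM (-1.42), and Fos itself at 4006 and 2344 CPM (-0.77). Atf3, a stress-induced repressor, was at 1043 and 440 CPM (-1.24). The difference was not shared by all classes: Egr1 was at 3435 and 402 CPM in resident macrophage-like cells (-3.08), at 3414 and 875 CPM in cells of no subclass (-1.96), and at 280 and 402 CPM in Ly6c-high monocyte-like cells (0.51). The median of the list was -1.34 in resident cells, -0.79 in Gpnmb cells and -0.50 in Spp1 cells. Hearts were digested with enzymes before the cells were captured. How much of these levels, or of those of the Hsp70 genes below, arose in handling was not tested.

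Both stress-induced Hsp70 genes were lower, while most chaperones were not past 2-fold. Of 19 tested genes 2 were lower and 1 higher in gated cells, and the median was 0.02. The higher gene was the small heat shock protein Hspb1, at 4.37 and 23.9 CPM (1.62), with 87.8% of its TAC reads in 10 cells. Over all cells 3 were lower, with Dnajb1, a partner of Hsp70, at 149 and 62.8 CPM (-1.19). Hspa1a was at 471 CPM (465 to 477) and 105 CPM (103 to 107), a log2 ratio of -2.11, and Hspa1b at 84.7 and 24.7 CPM (-1.59), with WT ratios of -1.83 and -1.67. Hspa1a, like Egr1, was lower in resident cells (750 and 82.4 CPM) and level in Ly6c-high cells (130 and 129 CPM). Hspa8, the constitutive member of the family, was at 1196 and 1814 CPM (0.60). The core of the heat shock element, GAANNTTC, reads the same on both strands. It was in 7 of 16 promoters of the list (43.8%), against 7.73% of all genes and 6.0% of tested genes. The higher gene Hspb1 had 2 matches, and Dnajb1, lower over all cells, had none. The core was thus in promoters of higher and of lower genes. The windows of Hspa1a (chr17:34972157-34972406) and Hspa1b (chr17:34959239-34959488), both on the minus strand and both with a match 96 bases before the start in capitals, are shown because they differ at 3 of 250 bases. The genes are near-identical copies, so the split of reads between them is uncertain.
Hspa1a: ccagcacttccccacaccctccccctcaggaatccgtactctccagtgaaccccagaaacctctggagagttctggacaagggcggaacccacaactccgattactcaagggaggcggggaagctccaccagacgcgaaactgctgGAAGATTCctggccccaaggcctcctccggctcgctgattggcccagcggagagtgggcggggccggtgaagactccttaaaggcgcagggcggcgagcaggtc
Hspa1b: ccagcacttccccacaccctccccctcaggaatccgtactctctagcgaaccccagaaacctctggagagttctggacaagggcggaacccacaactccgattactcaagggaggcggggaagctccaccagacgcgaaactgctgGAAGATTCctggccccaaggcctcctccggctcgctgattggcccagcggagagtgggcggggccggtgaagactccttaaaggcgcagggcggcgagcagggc

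Genes of lysosomes, lipid handling and matrix were higher as small groups. In gated cells the aspartic protease Ctsd was at 729 and 2034 CPM (1.47) and the cysteine protease Ctsl at 85.0 and 279 CPM (1.66), and they were the only genes of 31 in the lysosome list past 2-fold, where the median was 0.34. Of 21 genes of lipid handling 5 were higher and 2, Lpl and Cd36, lower. Apoe, the lipoprotein that carries cholesterol out of macrophages, was at 7102 and 15607 CPM (1.14). Trem2, a lipid receptor of macrophages, was at 135 and 310 CPM (1.17), and Gpnmb, a glycoprotein of lipid-laden macrophages, at 32.2 and 109 CPM (1.61). In the matrix list 5 of 13 genes were higher and none lower, and Thbs1, which activates TGF-beta, was at 127 and 400 CPM (1.62). Spp1, osteopontin, was at 466 and 766 CPM (0.71), against -0.91 in WT. Over all cells Postn, a matrix protein of activated fibroblasts, was at 6.47 and 85.5 CPM (2.98), but it reached 100 CPM in only 7 and 14 cells and was at 2.404 CPM in gated TAC cells.

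Several monocyte genes were higher in the gate, and scavenger receptors differed in both directions. Ly6c2, the surface protein of classical monocytes, was at 334 and 920 CPM (1.45), near its WT ratio of 1.80, and Plac8, another of their markers, at 584 and 1482 CPM (1.34). Chil3, a lectin that marks such monocytes, was level at 203 and 204 CPM (0.01) but had a WT ratio of 1.66. Ms4a7, a gene of recruited macrophages, was at 115 and 416 CPM (1.81). Of 17 tested scavenger and dead-cell receptors 3 were higher and 2, Cd36 and Cd163, lower, with a median of 0.23. The higher ones were receptors for modified lipoproteins and microbes: Msr1 was at 172 and 415 CPM (1.24), Marco at 2.21 and 52.1 CPM (2.99) and Olr1 at 5.45 and 40.7 CPM (2.13). Il4ra, the receptor chain for interleukin-4, was at 67.3 and 193 CPM (1.45).

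Chemokines and cytokines differed in both directions. In gated cells Ccl3 and Ccl4, which attract monocytes and lymphocytes, were at 558 and 199 CPM (-1.47) and at 391 and 158 CPM (-1.28), while Ccl12, a ligand of Ccr2, was at 99.2 and 298 CPM (1.54). Ccl8, another monocyte attractant, was at 1.13 and 29.0 CPM (2.47). Ccr2, the receptor that brings monocytes out of bone marrow, was at 1479 and 1742 CPM (0.23). Tnf, a cytokine of inflammation, was at 111 and 38.7 CPM (-1.41), and Il1b, the secreted interleukin-1 beta, at 852 and 541 CPM (-0.65). Among growth factors that the study followed, Igf1, a trophic factor for heart muscle, was at 122 and 169 CPM (0.45). Osm, an interleukin-6 family cytokine, was at 121 and 161 CPM (0.40). Areg, a ligand of the epidermal growth factor receptor, was at 40.2 and 9.86 CPM (-1.60). Areg had a read in only 3.09% of gated sham and 0.893% of gated TAC cells, so its ratio rests on few cells. It was also among the markers used here for group 2 innate lymphoid cells.

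Some genes of cell division were higher in the gate. In gated cells 8 of 29 tested genes were at least 2-fold higher, among them the cyclin Ccna2 at 4.24 and 22.9 CPM (1.59) and the spindle protein Hmmr at 4.70 and 20.1 CPM (1.37). Of the 29 genes 21 had a ratio above 0, and the median was 0.63. Among those below 0 were Mcm5, a part of the replication helicase, at 31.8 and 18.5 CPM (-0.64), and Pcna, the clamp of DNA polymerase, at 183 and 129.9 CPM (-0.48). Without dividing cells the median of the list was -0.41. Over all CD45+ cells none of 33 passed 2-fold. With the gate limits halved, the ratios of Ccna2 and Hmmr were 0.86 and 0.98.

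Several lists held no gene past 2-fold in gated cells. Over all tested genes of gated cells 1.99% were higher and 1.19% lower, so none in a short list is near that share. Among 74 nuclear genes of oxidative phosphorylation the median was 0.11 in gated cells, and none was past 2-fold in either population. Among 29 genes of glycolysis and the hypoxia response none was past 2-fold either, with a median of 0.40, and the lactate carrier Slc16a3 was at 52.5 and 95.6 CPM (0.81). None of 13 genes of TGF-beta signalling and none of 17 Toll-like receptors and adaptors passed 2-fold in gated cells. Tlr4 was at 28.8 and 51.1 CPM (0.73). Over all CD45+ cells the receptor Tlr13 was past 2-fold (1.02).

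Over all CD45+ cells the genes with low ratios included, beside Retnla and Mgl2, genes of mast cells, of group 2 innate lymphoid cells and of fibroblasts. All 7 tested mast cell genes were at least 2-fold lower, with a median of -2.58, and all 7 were also lower in WT. The mast cell protease Mcpt4 was at 742 CPM (736 to 747) and 8.71 CPM (8.22 to 9.22), a log2 ratio of -5.77, and it reached 100 CPM in 36 and 6 cells. Carboxypeptidase Cpa3 was at 527 and 31.1 CPM (-3.88) and the tryptase Tpsb2 at 438 and 15.2 CPM (-4.45), the latter in 30 cells and 1 cell. The markers of group 2 innate lymphoid cells were lower by the same measure in all 5 tested cases, with Il1rl1 at 163 CPM in sham (-2.63) and Gata3 at 23.6 and 2.24 CPM (-1.98). Il1rl1 was lower inside the gate too, at 78.7 and 13.5 CPM (-2.18). Without doublet-like cells 1 of the 5, Rora, was at -0.51, and Il7r at -0.94. Of 7 tested fibroblast genes 3 were lower and none higher. Gsn, which severs actin filaments, was at 499 and 22.5 CPM (-4.20), in 12 and 2 cells, and Dcn, a proteoglycan of collagen fibres, at 424 and 97.8 CPM (-2.06). The collagen genes Col1a2 (60.2 and 63.9 CPM, 0.08), Col3a1 (82.0 and 84.5 CPM, 0.04) and Col1a1 (55.3 and 41.9 CPM, -0.36) were near level. Fibroblast-like cells were 13 of 835 (1.56%, 0.831 to 2.65%) and 6 of 919 CD45+ cells (0.653%, 0.240 to 1.42%), with overlapping intervals. In the gate Dcn and Gsn were at 48.2 and 55.0 CPM in sham, from 1 cell, and at 0 in TAC.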

How the data were processed

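Hearts were digested, heart muscle cells and dead cells removed by density, and CD45+ cells selected with magnetic beads. They were captured on the BD Rhapsody system and sequenced with the TAS-Seq protocol as 1 pooled library with hashtags. The authors deposited one matrix of raw counts, which give the reads of every gene under every barcode once errors were corrected from their distribution, and assigned hashtags and doublets. Cutadapt 2.10, Bowtie2 2.4.2 and GRCm38 are named in the submitters' processing notes. Of 5363 columns, 48 (40 doublets and 8 without a hashtag) were not used. Deposited notes tie each hashtag to a group by its title, which was used here. The field for the model reads TAC for every group, sham included. Deposited columns held 843 sham and 925 TAC cells of CD3ϵ-/- mice, of which 835 and 919 were kept.

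Reads were summed over the cells of a group, mitochondrial genes included, and scaled to CPM. Log2 ratios had 5 CPM added to both levels, and genes with a mean of 10 or more CPM over both groups were used. A gene was called higher or lower at 2-fold. Gene levels were not divided by length, so they are compared between groups and not between genes. Python 3.11.15, numpy 2.4.6, scipy 1.17.1 and pandas 2.3.3 were used. On simulated gated cells 100.0% of 185 changed genes kept their direction and 0.0% of 8429 unchanged genes were called. The simulated cells of a group were drawn independently from a common profile, without spread between mice, rare cell types or a change in cell mix. The simulation therefore checks the calculation and does not give an error rate for the calls made here.

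The genes and lists described were chosen with earlier results of these data known. Genes were named when they were among the 12 highest or lowest ratios at 100 or more CPM, among the 3 highest or lowest called members of a list, marker genes, or genes followed by the study. Csf1r and Lyz2 (in the gate) and predicted (Gm, Rik), mitochondrial, ribosomal protein and immunoglobulin genes were left out of the first of these. Others (Apoe, Atf3, C1qa, Cd74, Cxcl10, Fos, H2-Aa, H2-Ab1, Hspa8, Ifih1, Il1b, Il4ra, Mcm5, Pcna, Slc16a3, Socs1 and Stat2) were named after their values were seen. Cells were doublet-like when they met the markers of 2 lineages, or lay in the gate and met those of B, T or NK cells. Alternatives changed the pseudocount, filter, scaling, depth, cell filters and gate limits, left out cavity-like, dividing or doublet-like cells, and, chosen after the data were seen, set the marker limit to 50 or 200 CPM.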

Additional observations from a re-analysis of the deposited data

Results flagged for a closer look

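In 10 cases a gene past 2-fold in CD3ϵ-/- hearts had a log2 ratio of at least 0.5 in the opposite direction in WT hearts. Each group is 1 pooled sample, and the difference between genotypes was not tested. Over all CD45+ cells these were Prg4, a serous lubricant (4.36 in CD3ϵ-/-, -0.86 in WT), Vsig4, a complement receptor (3.19, -0.60), Postn, a fibroblast matrix protein (2.98, -0.91), Ctsk, a collagen-cleaving protease (1.22, -0.89), and Timd4, a receptor of resident macrophages for dead cells (1.03, -1.10). The opposite held for the elastase Mmp12 (-1.48, 0.59) and Clec9a, a dendritic cell receptor (-1.10, 0.50). Most of these levels were low. Prg4 and Vsig4 also rested on few cells. Of the Prg4 reads in CD3ϵ-/- TAC 98.3% came from the 25 cavity-like cells, and 1 cell in each WT group reached 1000 CPM. In WT TAC 2 cells held 77.4% of the Vsig4 reads. Timd4 went from 6.04 to 17.6 CPM in CD3ϵ-/- hearts and from 14.7 to 4.16 CPM in WT hearts, and Mmp12 from 371 to 129.9 CPM and from 101 to 154 CPM.

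In gated cells the cases were Vsig4 (3.12, -0.89), S100a9, a neutrophil protein (-1.34, 2.84), and Ccl17, a dendritic cell chemokine (-2.37, 3.40). S100a9 was at 40.3 and 12.9 CPM in CD3ϵ-/- hearts and 0 and 30.8 CPM in WT hearts, and Ccl17 at 44.9 and 4.65 CPM and at 1.37 and 62.2 CPM. Both rest on few cells. In gated CD3ϵ-/- cells S100a9 had a read in 0.206% of sham and 1.49% of TAC cells, the larger share being opposite to its ratio. Ccl17 had a read in 1.24% and 0.744%. Vsig4 was at 7.60 and 105 CPM and at 24.1 and 10.7 CPM.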

How the results depend on the processing

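No paired analysis was possible because each group was 1 pooled sample and no test was made, and no replicate could be left out. With 20 CPM added in place of 5 the counts of genes 2-fold higher and lower were 113 and 78 over all cells and 88 and 57 in gated cells, and with a mean of 50 or more CPM required they were 107 and 65, and 82 and 53. The other alternatives kept every count within 1.5 times, but not always the same genes: from the mean of single-cell CPM, 134 of the 174 higher and 74 of the 104 lower genes of gated cells were shared. The difference in the gated share ranged from 12.7 to 15.4 points. Values of named genes were on the same side of 2-fold in 4546 cases, fell below it in 120, passed it in 57 and changed sign past it in 0. Of the list medians 27 moved by 0.25 or more, and that of cell division in gated cells was -0.41 without dividing cells. Of the class differences, the Gpnmb class was 17.8 points at a marker limit of 200 CPM, and the Spp1 class 22.9 and 14.7 points at 50 and 200 CPM. Depth limits classes of few cells most, and the spread between mice cannot be seen in these data.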
